A study of Homo sapiens with 8 samples.

Results

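The genes described here are 38 transcriptional targets and direct regulators of p53, the transcription factor that halts division or starts cell death after DNA damage. They are a list of names, drawn up with earlier results of these arrays known. For each gene the brightest of its singly annotated probe sets was used, which gave values for 36 of the 38. FDXR and BTG2 were not analysed here. Of the 36 genes, 30 lay above the median of all 19776 genes and were tested among 9888 genes. PLK3, GADD45B, PERP, TNFRSF10A, TNFRSF10C and TP53I11 lay below that median and are described without a test.

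The series compared BMI1 knockdown with control in 4 established human neuroblastoma lines, which are SK-N-DZ, SK-N-BE, SH-SY5Y and NB-39-nu. Control cells received the pLKO.1 control vector (shCont), and knockdown cells received a lentivirus with a single hairpin against the Polycomb protein BMI1 (shBMI1-1). All were grown in serum-containing medium, and the labels name no DNA-damaging treatment. RNA was collected 8 to 14 days after shBMI1 infection, and there was 1 array per line and condition, 8 in all. The labels do not say which array was taken on which day. The labels mark no culture as repeated, so knockdown p-values measure only the spread of the response between these lines.

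BMI1 signal was lower in the knockdown array in all 4 lines. It stood at 24.6% of its control in NB-39-nu, 39.4% in SK-N-DZ, 65.0% in SK-N-BE and 65.5% in SH-SY5Y. Its probe set also matches a read-through transcript from the neighbouring gene. The adrenergic neuroblastoma identity was present: 8 of 9 measured markers lay above the filter, and TH, the first enzyme of catecholamine synthesis, lay below it. None of the 3 leukocyte and none of the 3 endothelial markers measured did. Of the mesenchymal or fibroblast markers 3 of 6 did (COL1A1, COL3A1 and LUM), as did 1 of 3 epithelial markers (EPCAM).

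In unstressed cells p53 is kept low by MDM2, a ubiquitin ligase whose own gene p53 activates, and by the related protein MDM4. DNA damage frees p53, which binds response elements made of a pair of short copies of 1 motif and raises genes for arrest, repair, death receptors and redox control. Many cell cycle genes fall indirectly, through the p21 protein and the repressor complex DREAM.

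The promoter windows of the listed genes were searched for that motif, because it is the sequence that these genes are known for. The motif searched was the p53 consensus, given by its name alone, which reads the same on both strands, and a full site was a pair of motifs with a spacer of up to 13 bases. RefSeq windows (GRCh38.p14) of 300 bases, from 250 before to 50 after each transcript start, were at hand for 30 of the 38 genes. The motif lay in 7 of the 44 windows of these genes (15.9%) and in 6.63% of all 35116 windows. The full site was found in 1 of the 44 and in 0.0285% of all windows. That one is the window of DDB2, which encodes the damage-recognition protein of nucleotide excision repair. The matches of the 6 genes that were also measured are shown with the consensus in capitals:
DDB2 (chr11:47214975-47215004, plus strand, positions 6 to 26 after the start, spacer of 1 base): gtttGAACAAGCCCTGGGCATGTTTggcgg
FAS (chr10:88991299-88991328, plus strand, positions -122 to -113): cggaactcctGGACAAGCCCtgacaagcca
SESN1 (chr6:109009018-109009047, minus strand, positions -49 to -40): attgtcgtctGGACAAGTCTccacaagtca
PLK2 (chr5:58460199-58460228, minus strand, positions -132 to -123): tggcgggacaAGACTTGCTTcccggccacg
RPS27L (chr15:63157517-63157546, minus strand, positions -59 to -50): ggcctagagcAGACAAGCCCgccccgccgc
AEN (chr15:88621296-88621325, plus strand, positions -34 to -25): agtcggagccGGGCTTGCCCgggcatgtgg
A match describes these letters and is no proof of binding, and a window without one may have sites elsewhere. No window was given for TP53INP1, RRM2B, TNFRSF10A, TNFRSF10B, GADD45A, PHLDA3, TNFRSF10C and ASCC3. After knockdown all 6 genes with a match shown were higher in NB-39-nu and lower in SH-SY5Y (26.6% of all tested genes), as most of the listed genes were. In SK-N-BE 3 of the 6 were higher (52.8% of all tested genes), namely SESN1, PLK2 and AEN. In SK-N-DZ only DDB2 was higher (55.1%).

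After BMI1 knockdown the p53 targets were mostly higher in NB-39-nu and mostly lower in SH-SY5Y, and had no common direction in SK-N-BE and SK-N-DZ. In NB-39-nu 27 of the 30 tested genes were higher, where 52.8% of all tested genes were, with a median log2 ratio of 0.38 against 0.03 over all tested genes. In SH-SY5Y 26 of 30 were lower, where 47.6% of all tested genes were, with a median of -0.36 against 0.02. In SK-N-BE 16 were higher (52.8% over all tested genes) and the median was 0.02, while SK-N-DZ had 15 higher (55.1%) and 15 lower (44.9%) and a median of 0.02. Each within-line value is the log2 of knockdown over control on the scale signal + 8, 1 array over 1 array, so no line's difference has a replicate check.

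Ratios of at least 1.5-fold had the same split. In NB-39-nu 9 genes were at least 1.5-fold higher (12.9% of all tested genes) and 1 was at least 1.5-fold lower (8.5%). In SH-SY5Y 10 were at least 1.5-fold lower (3.8%) and 0 were as much higher (4.88%). SK-N-BE had 4 at least 1.5-fold higher (4.8%) and 0 lower (3.35%), and SK-N-DZ had 2 in each direction (4.32% higher and 4.39% lower). At 2-fold, SK-N-DZ had TNFRSF10B and PIDD1 higher (1.1%) and 0 lower (1.16%). No dimmer probe set of either gene was at least 2-fold higher there. Also at 2-fold, SK-N-BE had 0 higher (1.02%) and 0 lower (0.475%), and SH-SY5Y had 0 higher (0.769%). The combination of higher in NB-39-nu and lower in SH-SY5Y held for 24 of 30 genes and for 26.6% of all tested genes. The opposite combination held for 1, MDM4, and for 26.2%. GDF15, FAS, TNFRSF10B and PLK2 were at least 1.5-fold higher in 1 line and as much lower in another, which held for 4% of all tested genes. SH-SY5Y gave the lowest of the 4 ratios for 21 of 30 genes (27% of all tested genes), and NB-39-nu the highest for 18 (31.4%).

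Over the 4 lines together no p53 target passed. In the limma fit with cell line as a block, 0 of 30 had an adjusted p below 0.05, where 1 of 9888 genes (0.0101%) did. At an unadjusted p under 0.05 the count was also 0 of 30, where 9.33% of all tested genes passed. That count rested on the set of lines: it was 5 of 30 without NB-39-nu (8.43% of all tested genes) and 5 of 30 without SH-SY5Y (10.6%). The mean log2 ratios over the lines ran from -0.42 for TP53INP1 to 0.55 for PIDD1, with 14 genes above 0 and 16 below, and a median of -0.01 against 0.03 over all tested genes. The mean of TP53INP1 was -0.20 without NB-39-nu, -0.27 without SH-SY5Y and -0.66 without SK-N-BE, and that of PIDD1 was 0.84 without SH-SY5Y. The SD over the lines was wider than the size of the mean for all genes but POLH and BTG1. BTG1, which slows proliferation, was the only tested p53 target higher in all 4 lines (10.6% of all tested genes). No tested target was lower in all 4 (7.65%).

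The lines differed in their levels of most p53 targets. In the F test of cell line in the same limma fit, 29 of 30 genes had an adjusted p below 0.05, but so did 79.9% of all tested genes. For this test the shCont and shBMI1-1 arrays of a line stood in for replicates, as no culture was marked as repeated. The control arrays of the 4 lines differed at least 4-fold for 15 of 30 genes, where 21.3% of all tested genes did. The median range over the 4 control arrays was 1.92 on the log2 scale for the p53 targets and 1.23 for all tested genes. SH-SY5Y had the highest control signal for 16 of 30 genes (29.4% of all tested genes), NB-39-nu for 5 (23.5%), SK-N-BE for 5 (22.9%) and SK-N-DZ for 4 (24.3%). In the knockdown arrays it was highest for 11 (27.4%), as was NB-39-nu (24.9%). Both SH-SY5Y arrays lay above all 6 others for 9 genes (18.3% of all tested genes), namely MDM2, GDF15, SESN2, ZMAT3, TP53INP1, BTG1, GADD45A, CCNG2 and CYFIP2. At the other end, both SK-N-DZ arrays lay below all others for 10 genes (16.7%) and both SK-N-BE arrays for 9 (16.5%). The range over the lines was narrower in the knockdown than in the control arrays for 18 of 30 genes, where 56.9% of all tested genes were narrower. A control level and a ratio share the control array, so a gene read high in that array alone would also show a low ratio.

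Among the genes that restrain p53, signals are given as control to knockdown. MDM2 went from 3014 to 3476 in NB-39-nu, 6044 to 4235 in SH-SY5Y, 2616 to 1859 in SK-N-BE and 4183 to 3696 in SK-N-DZ. It was thus lower in all lines but NB-39-nu, with a mean log2 ratio of -0.24 ± 0.34 (SD, n = 4 lines; limma adjusted p = 0.612). SH-SY5Y stayed the highest line after knockdown. A second, dimmer MDM2 probe set was at -0.21 in NB-39-nu and 0.22 in SK-N-BE, the other way in both, and at -0.45 in SH-SY5Y. MDM4, which binds p53 and blocks its activation domain, ran against most other genes in NB-39-nu and SH-SY5Y. It went from 6498 to 4445 in NB-39-nu, 6304 to 7334 in SH-SY5Y, 4132 to 3751 in SK-N-BE and 5116 to 6686 in SK-N-DZ. Its control values spanned 1.57-fold between lines, the least of the tested genes. A second MDM4 probe set, nearly as bright, was at -0.50 in NB-39-nu but at -0.02 in SH-SY5Y and 0.03 in SK-N-BE. The dimmer MDM4 probe sets above the filter were at 0.57 and 0.64 in SH-SY5Y and -0.43 and -0.60 in NB-39-nu.

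PPM1D, a phosphatase that switches off the damage kinases and p53, went from 3236 to 5268 in NB-39-nu, 3736 to 3529 in SH-SY5Y, 1814 to 1837 in SK-N-BE and 1634 to 2099.6 in SK-N-DZ. CCNG1, which encodes cyclin G1 and recruits a phosphatase to MDM2, went from 12129.9 to 13135 in NB-39-nu, 8224 to 6022 in SH-SY5Y, 5502 to 5162 in SK-N-BE and 5698 to 5978 in SK-N-DZ. Both NB-39-nu arrays of CCNG1 lay above all others, which held for 3 of 30 tested targets and for 13.6% of all tested genes. TRIAP1, a small mitochondrial protein that favours survival, went from 3784 to 5134, 4855 to 4403, 3348 to 3466 and 5843 to 5246 in the same order. Knockdown ratios of PPM1D were 0.70 in NB-39-nu and between -0.08 and 0.36 elsewhere, and a dimmer PPM1D probe set averaged -0.06 over the lines.

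The arrest genes were higher in NB-39-nu in 6 of 6 tested cases (52.8% of all tested genes), as were 27 of the 30 tested targets. ZMAT3, an RNA-binding protein that promotes arrest, went from 1286 to 1349 in NB-39-nu, 4902 to 2495 in SH-SY5Y, 1325 to 1609 in SK-N-BE and 810.2 to 716 in SK-N-DZ. The SH-SY5Y control array stood 6-fold over SK-N-DZ (signal + 8), and even after knockdown SH-SY5Y was highest. The other 3 ZMAT3 probe sets above the filter were also higher in NB-39-nu and lower in SH-SY5Y, but 1 of them read 0.07 in SK-N-DZ and -0.44 in SK-N-BE, opposite in sign to the rest. GADD45A, a stress protein that inhibits the mitotic kinase CDK1, went from 3250.0 to 4124, 8502 to 4769, 3979.9 to 3859 and 2404 to 2129. Its lowest ratio was likewise in SH-SY5Y, at -0.83 on the log2 scale, and its other lines lay between -0.17 and 0.34.

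PLK2, a kinase of the polo family induced by p53, went from 2945 to 6102 in NB-39-nu, 235 to 156 in SH-SY5Y, 3069.8 to 3949 in SK-N-BE and 70.3 to 37.6 in SK-N-DZ. It was the only tested target at least 2-fold higher in NB-39-nu (4.74% of all tested genes). The lines fell into a bright pair, NB-39-nu and SK-N-BE, where the gene was higher after knockdown, and a dim pair, where it was lower. CCNG2, an unconventional cyclin linked to quiescence, went from 2237 to 4116, 6001 to 5106, 1269.8 to 1684 and 1833 to 1890.0 in that order. Its ratio of 0.88 was the second highest of the tested targets in NB-39-nu.

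BTG1 went from 2334 to 2696 in NB-39-nu, 6696 to 7373 in SH-SY5Y, 3095 to 3189 in SK-N-BE and 2886 to 3963 in SK-N-DZ. The mean was 0.21 ± 0.18 (SD, n = 4 lines; higher in 4 of 4) and did not pass (limma adjusted p = 0.579). A dimmer BTG1 probe set was at -0.13 in SK-N-DZ and averaged 0.04. SFN, which encodes the 14-3-3 sigma protein that holds cells before mitosis, marked SK-N-DZ, at 5557 and 5891 there against 376 to 675 on the 6 other arrays. Both SK-N-DZ arrays lay above all others for 15.4% of all tested genes. The ratios of SFN were small, from -0.41 to 0.21. PLK3, under the filter, read between 89.7 and 216 and GADD45B between 19.7 and 111.

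Of the tested death-related genes, all 9 were lower in SH-SY5Y (47.6% of all tested genes) and 8 of 9 were higher in NB-39-nu (52.8%). Among the 30 tested targets of every role, 26 and 27 were. FAS, the receptor for FAS ligand, went from 216 to 367 in NB-39-nu, 416 to 275 in SH-SY5Y, 1261 to 954 in SK-N-BE and 78.1 to 66.6 in SK-N-DZ. It was higher in NB-39-nu alone, and SK-N-BE stood above all other lines in both arrays (14.1% of all tested genes). TNFRSF10B, a receptor for the death ligand TRAIL, went from 4639.9 to 5683, 7080.0 to 4583, 1778 to 1745 and 9.26 to 55.8 in the same order. SK-N-DZ was thus dim for TNFRSF10B, and its ratio of 1.89 is between values below the median of the table, 75.04. The dimmer TNFRSF10B probe sets, all below the filter, were at -2.17, 0.07 and 0.58 in SK-N-DZ. The other TRAIL receptors were under the filter, TNFRSF10A reading between 21.3 and 127 and TNFRSF10C, a decoy without a death domain, between 16.2 and 136. TNFRSF10C had the highest ratio of any listed gene, 2.57 in NB-39-nu, where it went from 16.2 to 136, below the filter on the mean.

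TP53INP1, a nuclear cofactor of p53, went from 37.3 to 13.1 in NB-39-nu, 4725 to 2582 in SH-SY5Y, 349 to 428 in SK-N-BE and 708 to 704 in SK-N-DZ. It was at least 2-fold lower in NB-39-nu (1.94% of all tested genes), though dim there in both conditions. Its control values spanned 105-fold (signal + 8). Both SH-SY5Y arrays lay above all others (18.3% of all tested genes) and both NB-39-nu arrays below (13.9%). TP53I3, a quinone oxidoreductase tied to oxidative stress, went from 1102 to 1697, 5151.0 to 4339, 5683 to 4079 and 934 to 973. The lines formed a bright pair, SH-SY5Y and SK-N-BE, in which it was lower, and a dimmer pair, in which it was higher.

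PIDD1, a scaffold that activates caspase-2, had the highest mean, going from 233 to 369 in NB-39-nu, 213 to 167 in SH-SY5Y, 133 to 240.0 in SK-N-BE and 217 to 461 in SK-N-DZ. Its mean was 0.55 ± 0.61 (SD, n = 4 lines; limma adjusted p = 0.579), higher in 3 of 4 lines. A second PIDD1 probe set averaged 0.07 and was at 0.11 in SK-N-DZ, so the size is uncertain. PIDD1 was also the only tested target that did not differ between lines in the F test (limma adjusted p = 0.157). CYFIP2, a regulator of actin branching, went from 1606 to 2422, 4462 to 3622, 824 to 1408 and 611 to 737, and its second probe set had the same sign in all 4 lines, averaging 0.73.

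PHLDA3, which competes with the survival kinase AKT for membrane lipids, went from 406 to 611 in NB-39-nu, 547 to 466 in SH-SY5Y, 69.1 to 103 in SK-N-BE and 125 to 130.1 in SK-N-DZ. RPS27L, a ribosomal protein paralogue that binds MDM2, went from 35809.6 to 42417, 17447 to 11584, 7374 to 5936 and 14077 to 11258. Both NB-39-nu arrays of RPS27L stood above all others (13.6% of all tested genes) and both SK-N-BE arrays below (16.5%). AEN, a nuclease that degrades DNA in dying cells, went from 1078 to 1246, 779 to 656, 582 to 646 and 1510.4 to 1340.1. Its ratios stayed between -0.24 and 0.21, the narrowest range but BTG1 and ASCC3 among the tested targets. Below the filter, PERP, a junction protein tied to apoptosis, was higher in 4 of 4 lines but read only 20.2 to 105 outside SK-N-DZ, where it read 369 and 375. TP53I11, also below the filter, had ratios of -1.78 in NB-39-nu, where it went from 133 to 33.0, and 2.08 in SH-SY5Y, where it went from 16.2 to 94.0.

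Repair genes were higher in NB-39-nu (52.8% of all tested genes) and lower in SH-SY5Y (47.6%) in 5 of 5 tested cases each, as most targets were. DDB2 went from 935 to 1422 in NB-39-nu, 1299.6 to 1206 in SH-SY5Y, 441 to 398 in SK-N-BE and 165 to 207 in SK-N-DZ. XPC, which recognises distorted DNA in the same pathway, went from 977 to 1316, 1300.2 to 1204, 315 to 508 and 783 to 919. For both genes SH-SY5Y had the highest control and NB-39-nu the highest knockdown value. XPC had a mean of 0.31 ± 0.33 (SD, n = 4 lines; higher in 3 of 4; limma adjusted p = 0.585).

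RRM2B, the p53-inducible ribonucleotide reductase subunit that supplies nucleotides for repair, went from 1119 to 1598 in NB-39-nu, 1919.9 to 1139.9 in SH-SY5Y, 836 to 904 in SK-N-BE and 764 to 909 in SK-N-DZ. POLH, a polymerase that copies past ultraviolet lesions, went from 422 to 450.1, 519 to 348, 889.6 to 667 and 401 to 279. It was lower in 3 of 4 lines, with a mean of -0.35 ± 0.30 (SD, n = 4 lines; limma adjusted p = 0.579). ASCC3, a helicase of the alkylation repair complex, had the narrowest range of ratios, going from 1752 to 1897, 1946 to 1610.0, 2031 to 1879.8 and 1113 to 1059.

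Among the metabolic and stress targets, GDF15 had the lowest ratio of any tested target in SH-SY5Y. GDF15, a secreted stress cytokine, went from 421 to 572 in NB-39-nu, 6803 to 2347 in SH-SY5Y, 106 to 202 in SK-N-BE and 144 to 109 in SK-N-DZ. Its log2 ratio was -1.53 in SH-SY5Y, the only one at least 2-fold lower there (0.87% of all tested genes), and 0.88 in SK-N-BE. Both SH-SY5Y arrays were still above all others (18.3% of all tested genes). The x in its probe set's name marks probes that may cross-hybridise. The other GDF15 probe sets, far dimmer and below the filter, were higher in SH-SY5Y, from 2.23 to 56.4 and from 10.2 to 27.1. SESN1, a sestrin that restrains the growth kinase mTORC1, went from 679.6 to 914, 1901 to 1174, 1739 to 1777 and 667 to 471. The related SESN2 went from 261 to 267, 648 to 816, 205 to 291 and 212 to 118, so the ratios of the sestrins had opposite signs in SH-SY5Y, at -0.69 and 0.33.

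TIGAR, which lowers glycolytic flux, went from 3147 to 4800.4 in NB-39-nu, 2767 to 2115 in SH-SY5Y, 1516 to 1331 in SK-N-BE and 1349 to 1168 in SK-N-DZ. Both NB-39-nu arrays stood above all others (13.6% of all tested genes). SPATA18, a regulator of mitochondrial quality, went from 31.4 to 26.2, 505 to 294, 156 to 114 and 512 to 582. It was dim in NB-39-nu, and was lower in all lines but SK-N-DZ.

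Other p53 targets, from a separate list of 26 genes of which 15 were tested, had the same split. In NB-39-nu 14 of 15 were higher (52.8% of all tested genes) with a median of 0.41, and in SH-SY5Y 12 of 15 were lower (47.6%) with a median of -0.30. SK-N-DZ and SK-N-BE each had 8 of 15 higher (55.1% and 52.8% of all tested genes). None passed over the lines (limma adjusted p, 0 of 15). CDKN1A, the gene of p21, named after its values were seen, went from 2906 to 6862 in NB-39-nu, 5944 to 2944 in SH-SY5Y, 124 to 182 in SK-N-BE and 136 to 34.4 in SK-N-DZ. It thus had the same signs as ZMAT3 and PLK2 in NB-39-nu and SH-SY5Y. The mean ratios were highest for SERTAD1, a cofactor of cell cycle transcription (0.39), and CES2, a carboxylesterase (0.19). They were lowest for PMAIP1, which encodes the BCL2 family protein NOXA (-0.39), and PLXNB2, a semaphorin receptor (-0.33). The PMAIP1 mean rested on SK-N-DZ, where dim signals of 36.3 and 3.48 gave a ratio of -1.95. Its other ratios were 0.47 in NB-39-nu, -0.21 in SH-SY5Y and 0.14 in SK-N-BE. BAX, the pore-forming death effector, also named after its values were seen, had ratios of 0.35 in NB-39-nu and -0.54 in SH-SY5Y.

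Cell cycle genes that p53 lowers through p21 and DREAM ran the opposite way in NB-39-nu and SH-SY5Y. Of 22 tested, 22 were lower in NB-39-nu (47.2% of all tested genes; median -0.63) and 22 were higher in SH-SY5Y (52.4%; median 0.61). In SK-N-DZ 21 of 22 were higher (55.1%; median 0.27), and in SK-N-BE 8 of 22 (52.8%; median -0.15). SK-N-DZ had 21 of these 22 genes higher while its p53 targets were split 15 to 15. None of the 22 passed over the lines (limma adjusted p, 0 of 22). CCNB1, the mitotic cyclin B1 named after its values were seen, went from 16195 to 10197 in NB-39-nu, 1435 to 2255 in SH-SY5Y, 5459 to 4317 in SK-N-BE and 9817 to 11276 in SK-N-DZ. The means were highest for CDC25C, a phosphatase that starts mitosis (0.28), and CDK1 (0.20), and lowest for ECT2 (-0.16) and the replication helicase subunit MCM5 (-0.15).

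The regulators of p53, with 22 tested of 29 listed, had shares of higher genes of mixed size. Of the 22, NB-39-nu had 7 higher (52.8% of all tested genes), SH-SY5Y had 12 (52.4%), SK-N-BE had 7 (52.8%) and SK-N-DZ had 9 (55.1%). None passed over the lines, and 3 of 22 had an unadjusted limma p under 0.05, where 9.33% of all tested genes did. Of the 22, 5 were lower in all 4 lines (22.7%, against 7.65% of all tested genes): ATM, ATR, HIPK2, KAT5 and SETD7, of which ATR, HIPK2 and KAT5 were named after their values were seen. The lowest mean was that of SETD7, a lysine methyltransferase that can modify p53, which went from 2784 to 1426 in NB-39-nu, 3900.1 to 3125 in SH-SY5Y, 5075 to 3908 in SK-N-BE and 1681 to 1281 in SK-N-DZ. Its mean was -0.51 ± 0.30 (SD, n = 4 lines; limma adjusted p = 0.361). ATM, the kinase that responds to DNA breaks, had a mean of -0.40, but a dimmer ATM probe set averaged 0.0016. KAT5 was nearly unchanged in SH-SY5Y (log2 ratio -0.0034) and in SK-N-DZ (-0.0039), so its sign there carries little weight. A second KAT5 probe set was lower in 2 of 4 lines, and a second ATR probe set in 4 of 4. The dimmer HIPK2 probe sets, from brighter to dimmer, were lower in 3, 3 and 4 of 4 lines. The highest means were those of KMT5A, a histone methyltransferase (0.17), and TP53BP1, a damage adaptor (0.14).

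Markers of cell state also differed between the arrays of NB-39-nu. There 8 of 9 adrenergic markers were higher (52.8% of all tested genes), and their summed signal went from 44390.4 to 63828, of which STMN2 alone went from 1629.8 to 16825. Among those 8, GATA3 had a log2 ratio of only 0.01, and TH was at 0.05, between dim signals of 4.69 and 5.16. Of the mesenchymal or fibroblast markers 6 of 6 were higher, 3 of them below the filter, with a sum from 5873 to 14829, and LUM alone went from 5522 to 14204. In SH-SY5Y 6 of 9 adrenergic markers were higher (52.4% of all tested genes), with a sum from 132606 to 150146, and 2 of 6 mesenchymal ones, with a sum from 3112 to 2907. In SK-N-BE the adrenergic sum went from 74628 to 77940.1 (4 of 9 higher, 52.8% of all tested genes) and the mesenchymal one from 5732 to 6387 (2 of 6). In SK-N-DZ the adrenergic sum went from 40408 to 32840.0 (3 of 9 higher, 55.1% of all tested genes) and the mesenchymal one from 995 to 959 (3 of 6). Their part in the split of the p53 targets was not tested. In a culture, fewer cells with a transcript and less of it per cell cannot be told apart.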

How the data were processed

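Expression was measured on Affymetrix HG-U133 Plus 2.0 arrays, 4 shCont and 4 shBMI1-1. The deposited intensity values are linear MAS5 signals, and per the submitters' processing notes GCOS and MAS5 were used, with no version or build given in the sources used here. The authors' values had a mean of 500 on each array after trimming 2% at each end. Of 54675 probe sets, 41097 had 1 gene, 1801 several and 11777 none in the platform annotation, and 41043 took current RefSeq symbols. Values became log2(signal + 8). Genes above the median were fitted in limma 3.58.1 (R 4.3.3) with cell line as a block, a mean-variance trend and Benjamini-Hochberg adjustment over 9888 genes. The same fit gave the F test between lines. The labels name each array's line. Arrays of 1 line correlated at 0.9335 or more, and those of different lines at 0.8862 or less, and the pairing by line follows from the labels. The fit was tested on simulated data. The array number limits precision, and no detection calls were used.

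The genes and lists were chosen with earlier results of these data known. By rule, every listed gene was accounted for, with values on every array for those past a threshold in a fit, among the 3 highest or lowest ratios of a line, alike in sign in all 4 lines, or differing most between control arrays. The other lists are given by counts and their 2 highest and 2 lowest means. Promoter windows came from RefSeq GRCh38.p14. Alternatives changed the pseudocount (1 or 75), the filter, the normalization, the probe set rule, the trend, array weights, the block, and left out each line.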

Additional observations from a re-analysis of the deposited data

Results flagged for a closer look

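In 90 checks of 4 values each (control levels, knockdown levels and ratios of the 30 tested genes), 3 single lines stood apart from the other 3 by a gap above Dixon's critical share of the range, and chance alone marks about 1 in 20. CCNG1 was high in the knockdown array of NB-39-nu at 13.68 on the log2 scale, against 12.34 to 12.56 in the others. SFN was high in the knockdown array of SK-N-DZ at 12.53, against 8.79 to 9.01. PIDD1 was low in the control array of SK-N-BE at 7.14, against 7.79 to 7.91, and its ratio there uses that array.

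In 4 genes the change was at least 1.5-fold in opposite directions in a pair of lines, as in 4% of all tested genes. The difference was not tested, since each line has 1 array per condition. GDF15 was at 0.88 in SK-N-BE and -1.53 in SH-SY5Y, where its far dimmer probe sets were higher. FAS was at 0.74 in NB-39-nu and -0.59 in SH-SY5Y. TNFRSF10B was at 1.89 in SK-N-DZ, between dim signals of 9.26 and 55.8, and -0.63 in SH-SY5Y. A dimmer TNFRSF10B probe set was at -2.17 in SK-N-DZ. PLK2 was at 1.05 in NB-39-nu and -0.78 in SK-N-DZ, between dim signals of 70.3 and 37.6.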

How the results depend on the processing

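No p53 target passed over the lines under any of the 13 alternatives, and the lowest adjusted p among them was 0.322, without SH-SY5Y. The count of all genes called, 1 in the fit as reported, was 2 with a pseudocount of 75, with no filter, with the filter at the 75th percentile, with quantile normalization or with array weights. It was 0 without the trend, when a gene's probe sets were averaged, or without the line block (no pairing), which also took unadjusted calls from 923 to 23. Leaving out each line in turn gave 0 to 2, with 0 in the absence of SK-N-DZ or of SK-N-BE and 2 in the absence of either other line. With the filter at the 75th percentile 16 targets were tested: 16 differed between lines (87.4% of all genes tested there), and SK-N-DZ had 9 higher, SK-N-BE had 7, SH-SY5Y had 2 and NB-39-nu had 15. With no filter 7 of 36 were higher in SH-SY5Y. The shares of higher genes over all genes were not counted under these changed filters. Differences between lines were called for 23 to 28 of 30 targets when a line was left out, where 64.9% to 76.9% of all tested genes were. At an unadjusted p under 0.05, targets numbered 0 to 5 when a line was left out (5.76% to 10.6% of all tested genes). They numbered 4 with array weights (10.6%) and 0 to 2 under the other alternatives (0.233% to 11.2%). Under quantile normalization 26 of 30 were higher in NB-39-nu and 4 in SH-SY5Y, and the DREAM genes stayed at 0 and 22 of 22. With averaged probe sets they were at 1 and 22, and the targets at 25 and 5. Dim signals and single arrays limit every within-line ratio.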

Other observations

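For 11 of the tested p53 targets a second probe set also lay above the filter. The sign of the knockdown ratio matched between the 2 probe sets for 9 of 11 genes in both NB-39-nu and SK-N-DZ, for 8 in SH-SY5Y and for 5 in SK-N-BE, and for 10 of 11 in the mean over lines. For RPS27L these 2 matched in all 4 lines, with a second mean of -0.35, while the third probe set was at 0.04 in SK-N-DZ. The second probe set of CCNG2 was at 0.18 in SH-SY5Y, where the first was at -0.23, and averaged 0.26 over the lines. For SFN the second probe set was at 1.27 in NB-39-nu, where the first was at 0.17.

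By role, the median ratio in SH-SY5Y was -0.69 for the 5 tested metabolic and stress genes, -0.40 for the 6 arrest genes, -0.34 for the 9 death-related genes, -0.27 for the 5 repair genes and -0.14 for the 5 genes that restrain p53. In NB-39-nu the order differed, with 0.58 for the death-related genes, 0.43 for repair, 0.42 for metabolism and stress, 0.27 for arrest and 0.21 for restraint of p53. These are descriptions of 1 array pair each.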
